A study of Mus musculus with 12 samples.

Results

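The genes described here encode p97 and 9 proteins with a UBX domain that bind it: Faf2, Ubxn4, Ubxn8, Faf1, Ubxn7, Ubxn1, Ubxn2a, Ubxn2b, Ubxn6 and Vcp, the gene of p97 itself. They were chosen by symbol, not by their values, as 10 of the 57010 genes in the table, and all 10 passed the filter on low counts. The question was whether mRNA of the relatives or of Vcp is higher where Faf2 is disrupted, in cells kept undifferentiated and in cells induced to form neurons.

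Bulk RNA-Seq was performed on NE-4C cells, a neural progenitor line from early mouse embryonic brain that lacks p53, a background that every group shared. WT NO were unedited cells and KO NO were Faf2 KO cells, both collected without induction. WT RA and KO RA were the same cells given 1 µM all-trans retinoic acid (RA) for 24 h, then medium without RA, and collected on day 3. Each group held 3 libraries, from 3 independent passages. The Faf2 KO cells were 1 CRISPR line grown from a picked colony, so the deletion and any other difference of that line cannot be told apart.

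p97 is an ATPase that pulls ubiquitin-tagged proteins out of membranes and complexes and hands them to the proteasome. It does not choose its substrates. Cofactors do so, and the UBX domain, a fold like that of ubiquitin, is the most common way in which a cofactor docks on p97. FAF2 sits in the endoplasmic reticulum (ER) membrane, binds ubiquitin and holds p97 at the ER for ER-associated degradation (ERAD), the route by which misfolded ER proteins are removed.

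The edit in the KO line removes exon 4 of Faf2. This exon (chr13:54793058-54793134, GRCm39, plus strand, 77 bases of coding sequence) lies between exon 3 and exon 5 of the 11 exons of the canonical transcript. It is shown because its length leaves 2 bases beyond whole codons, so that a transcript without it is read out of frame from exon 5 on. The second sequence joins the last 30 bases of exon 3 (chr13:54789337-54789366) to exon 5 (chr13:54796105-54796131) up to the stop codon that the shifted frame meets, in capitals. It was built from the reference, not read from these cells.
Faf2 exon 4: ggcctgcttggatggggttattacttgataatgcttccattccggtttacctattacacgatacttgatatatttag
Faf2 exon 3 joined to exon 5: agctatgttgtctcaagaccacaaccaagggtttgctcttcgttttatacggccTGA

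The shortened frame holds 97 codons before the stop, against 445 in the full frame, and ends before the UBX domain near the C terminus. Exon 4 makes up only 1.355% of the 5684 bases of the transcript. A count per gene therefore does not separate transcripts with and without it, and the level of Faf2 mRNA neither shows nor checks the edit in a library.

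Levels are CPM, the estimated counts of a gene per 1000000 counts of its library, after scaling between libraries with TMM factors. The deposited counts are scaled from a length-corrected measure, so that levels may also be compared between genes. Library totals ran from 17370069 to 30738717 estimated counts, and the members had between 46 and 11708 counts in a library. KO RA replicate 3 stood apart. Its TMM factor was 0.394, against 0.872 to 1.28 in the other 11 libraries, so each comparison is also given without it. In bulk RNA, fewer cells of a type and less RNA per cell cannot be told apart. Neural progenitor markers (7 genes) summed to 475 to 503 CPM in WT NO, 379 to 427 in KO NO, 538 to 731 in WT RA and 773 to 887 in KO RA. The KO RA sum was mostly Vim (435 to 639 CPM). Otx2 and Pax6 went the other way. Otx2 was 135, 106 and 127 CPM in WT RA and 82.0, 104 and 19.4 in KO RA. Pax6 was 11.8, 14.6 and 14.9 CPM in WT RA and 4.33, 1.84 and 2.78 in KO RA. Mesenchymal markers (7 genes) summed to 42.1 to 61.6 CPM in WT NO, 36.6 to 42.1 in KO NO, 94.9 to 156 in WT RA and 170 to 314 in KO RA. Endothelial or haematopoietic markers (6 genes) summed to 0.739 to 3.33 CPM in WT NO, 1.21 to 2.21 in KO NO, 1.48 to 2.72 in WT RA and 5.85 to 13.5 in KO RA. Their part in the results below was not tested. Germline markers (5 genes) summed to at most 0.610 CPM in WT libraries and to 14.1 to 28.2 CPM in KO libraries, where most of the sum was Stag3 (9.81 to 27.1 CPM).

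Faf2, the targeted gene, was transcribed in every KO library. Its level was 50.0, 38.8 and 36.0 CPM in WT NO and 21.0, 21.7 and 25.4 CPM in KO NO. The 3 KO NO libraries lay below the 3 WT NO libraries. After RA it was 35.1, 37.9 and 49.1 CPM in WT RA and 36.1, 34.3 and 18.7 CPM in KO RA. Here the groups overlapped: KO RA replicates 1 and 2 sat beside the lower WT RA libraries, and replicate 3 was the lowest of all 12.

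In edgeR's quasi-likelihood test over 16502 genes, Faf2 in KO NO was 0.546 times its WT NO level (log2 fold change −0.87, SE 0.27, adjusted p = 0.179), which is short of the threshold of 0.05. Without KO RA replicate 3, whose spread enters the shared estimate, the same difference passed (−0.86, SE 0.16, adjusted p = 0.0111). It also passed in DESeq2 with all 12 libraries (adjusted p = 0.0142). Between KO RA and WT RA the log2 fold change of Faf2 was −0.45 (SE 0.27, adjusted p = 0.395) and −0.21 without KO RA replicate 3 (95% interval −0.61 to 0.19), and none of the 20 alternatives called it.

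**Figure D1:**
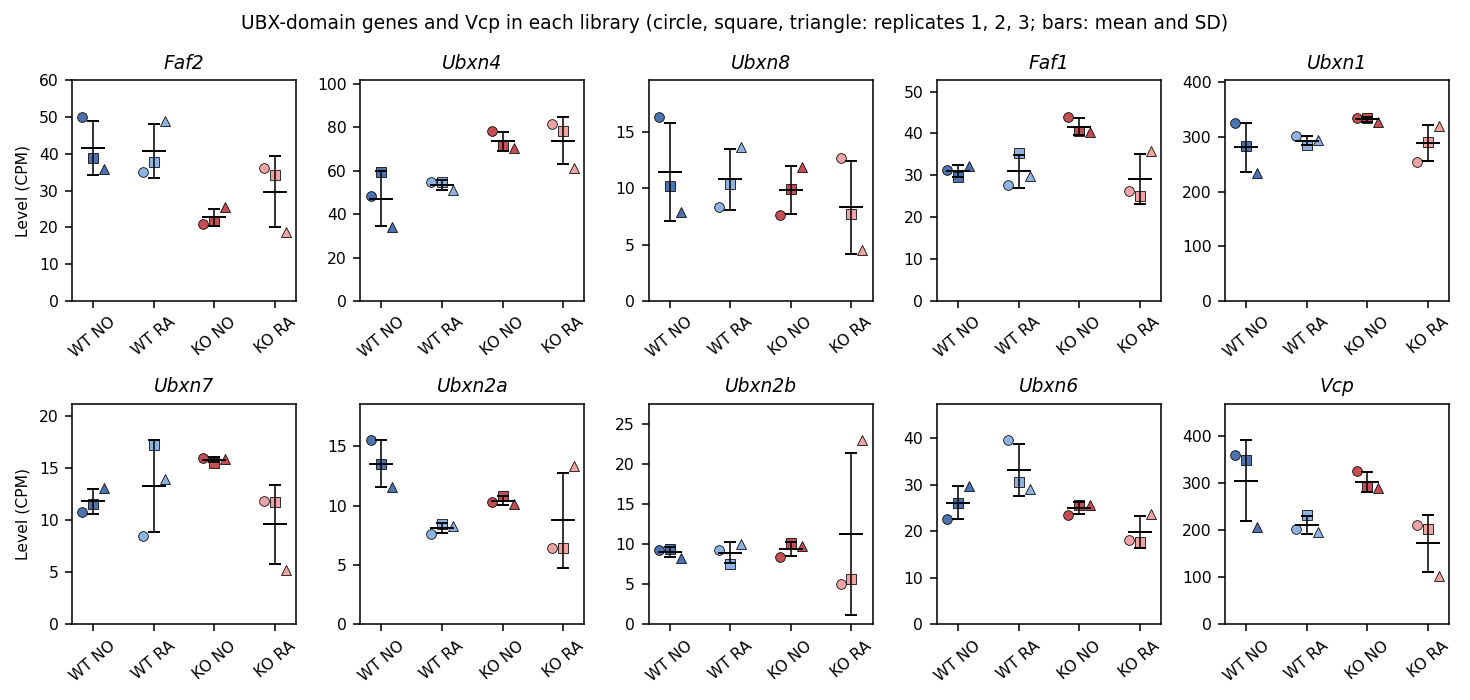
Level of each gene in CPM (vertical axis, from 0) in the 4 groups (horizontal axis); circles, squares and triangles are replicates 1, 2 and 3, and the bars give the mean and SD of 3 libraries. Faf2 in KO NO (21.0 to 25.4 CPM) lies below WT NO, and Ubxn4 in every KO library (61.5 CPM or more) lies above every WT library (59.2 CPM or less).

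Faf2 was not alone on its chromosome. Of the 20 tested genes nearest to it on chromosome 13 (10 on each side, reaching 0.25 Mb to the left and 0.50 Mb to the right), 19 had a negative log2 fold change in KO NO against WT NO. Their median was −0.74, and 7 of them were lower than Faf2 itself. None of these neighbours was called (lowest adjusted p in edgeR 0.0711, for Tspan17). Over all tested genes of chromosome 13, 76.7% were negative. In KO RA against WT RA 14 of the 20 neighbours were negative, beside 56.9% of chromosome 13, and again none was called. Their median was −0.46, close to the −0.45 of Faf2. Single libraries showed the same: in KO RA replicates 1, 2 and 3 Faf2 stood at −0.16, −0.23 and −1.10 against the WT RA mean, and its neighbours at −0.25, −0.28 and −1.25. Without replicate 3 the neighbours had a median of −0.29 in KO RA. The 648 tested genes of chromosome 13 had a median of −0.36 in KO NO, while the medians of the 17 autosomes other than 13 and 17 ran from −0.15 to 0.17. In KO RA chromosome 13 had a median of −0.15, and those autosomes −0.06 to 0.30. Chromosome 17, left out of that range, was lower than chromosome 13, with medians of −0.47 in KO NO and −0.46 in KO RA. In KO RA replicate 3 alone chromosome 13 stood at −0.14 against the WT RA mean, beside −0.19 for all other genes. Whether the level of Faf2 reflects the edit or its surroundings was not tested.

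**Figure D2:**
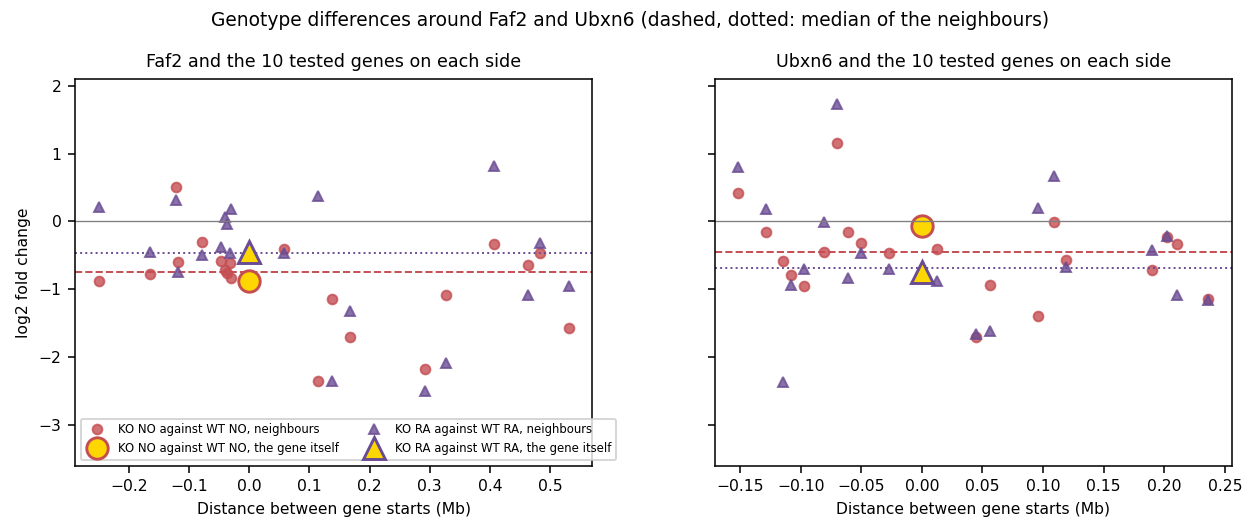
Log2 fold changes of Faf2 (left) and Ubxn6 (right), drawn as large yellow symbols, and of the 10 tested genes on each side against the distance in Mb; circles are KO NO against WT NO, triangles KO RA against WT RA, and the dashed and dotted lines are the medians of the neighbours (−0.74 and −0.46 around Faf2, −0.45 and −0.68 around Ubxn6). Faf2 lies near both lines; Ubxn6 lies above its line in KO NO and near it after RA with all 3 KO RA libraries, but apart from it (−0.89 against −0.55) without KO RA replicate 3, which is not drawn.

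UBXN4 and UBXN8 are the other UBX proteins of the ER membrane among these genes. UBXN4, also called erasin, binds p97 and promotes ERAD. Ubxn4 mRNA was 48.2, 59.2 and 34.0 CPM in WT NO and 78.5, 71.8 and 70.5 CPM in KO NO. After RA it was 54.8, 55.0 and 50.9 CPM in WT RA and 81.7, 78.4 and 61.5 CPM in KO RA. All 6 KO libraries lay above all 6 WT libraries, which was so for 1.99% of the 16502 genes (3.84% in either direction). Ubxn4 was the only member for which this held. It rests on the TMM factors: without them KO RA replicate 3 had 24.2 CPM, below the WT range of 40.9 to 63.6, while the other 5 KO libraries had 78.9 to 104 CPM.

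Ubxn4 was 1.56 times its WT NO level in KO NO (log2 fold change 0.64, SE 0.23, adjusted p = 0.253) and 1.38 times its WT RA level in KO RA (0.46, SE 0.23, adjusted p = 0.308). Averaged over both conditions the log2 fold change was 0.55 (SE 0.16, adjusted p = 0.0821). None of these passed in the fit of all 12 libraries. Ubxn4 passed without KO RA replicate 3 in KO NO (0.65, adjusted p = 0.0362) and in the average (0.61, adjusted p = 0.00838), and missed in KO RA (0.57, adjusted p = 0.0725). DESeq2 with all 12 libraries called it higher in KO NO (adjusted p = 0.0443) and in the average (adjusted p = 0.00252). The study chose Ubxn4 from these same libraries as a responding ER gene, so its direction is not independent evidence. Its 20 neighbours on chromosome 1 had medians of 0.42 in KO NO and 0.14 in KO RA (0.30 without KO RA replicate 3).

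Ubxn8, whose product anchors p97 at the ER, was low and scattered. It had 16.3, 10.2 and 7.9 CPM in WT NO and 7.6, 10.0 and 11.9 CPM in KO NO. With RA it had 8.4, 10.4 and 13.7 CPM in WT cells and 12.7, 7.7 and 4.6 CPM in KO cells. The genotypes overlapped in both conditions. The log2 fold change was −0.23 in KO NO (95% interval −1.07 to 0.62) and −0.37 in KO RA (−1.22 to 0.49). Ubxn8 overlaps Ppp2cb on the other strand, which reached 221 CPM, and the counting is not stated to use strand.

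Among the 3 ER membrane UBX genes the share of Faf2 was lower in every KO library than in any WT library. Faf2 made up 35.8 to 46.2% of their summed level in the 6 WT libraries and 19.6 to 28.5% in the 6 KO libraries. The ratio of Ubxn4 to Faf2 was 0.944 to 1.56 in WT and 2.26 to 3.73 in KO. These ranges do not overlap, and as ratios within a library they do not depend on the scaling. They restate the levels of Faf2, the edited gene, and Ubxn4, which the study chose from these libraries. The ratios were not tested, and the share of other gene pairs that separate in this way was not counted. The sum itself did overlap, at 77.9 to 115 CPM in WT and 84.7 to 131 CPM in KO.

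FAF1, UBXN7 and UBXN1 are soluble and carry a UBA domain, which binds ubiquitin. FAF1 shares the domain order of FAF2 and works with the UFD1-NPL4 form of p97. Faf1 was 31.2, 29.5 and 32.3 CPM in WT NO and 43.9, 40.7 and 40.3 CPM in KO NO. The KO NO libraries all lay above WT NO, by 1.34-fold (log2 fold change 0.42, SE 0.20, adjusted p = 0.414). Faf1 passed as higher once KO RA replicate 3 was left out (0.43, SE 0.11, adjusted p = 0.0420). After RA it was 27.7, 35.4 and 29.8 CPM in WT RA and 26.2, 25.1 and 35.9 CPM in KO RA. These groups overlapped, with a log2 fold change of −0.09 (95% interval −0.52 to 0.34).

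Ubxn7, whose product links p97 to cullin ubiquitin ligases, was 10.7, 11.6 and 13.1 CPM in WT NO and 16.0, 15.5 and 15.9 CPM in KO NO. The groups did not overlap, with a log2 fold change of 0.42 (SE 0.32, adjusted p = 0.720). In WT RA it was 8.5, 17.3 and 14.0 CPM, and in KO RA 11.8, 11.8 and 5.3 CPM. The WT RA libraries alone spanned more than the difference.

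Ubxn1 was by far the most abundant of the 9 UBX genes described here, with 56.2 to 63.3% of their summed level in every library. Its product binds ubiquitin chains on p97 clients in the cytosol. It had 325, 283 and 235 CPM in WT NO and 334, 335 and 327 CPM in KO NO. KO NO lay above WT NO by 1.18-fold (log2 fold change 0.24, 95% interval −0.22 to 0.71). After RA the groups overlapped, at 302, 285 and 294 CPM in WT RA and 254, 291 and 321 CPM in KO RA.

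UBXN2A and UBXN2B (also called p37) carry a SEP domain beside the UBX domain, as does p47, the product of Nsfl1c. UBXN2B takes part in the upkeep of the Golgi and ER. Ubxn2a was 15.5, 13.5 and 11.6 CPM in WT NO and 10.3, 10.8 and 10.1 CPM in KO NO. KO NO lay below WT NO (log2 fold change −0.38, SE 0.28, adjusted p = 0.702). Ubxn2b was 9.3, 9.4 and 8.3 CPM in WT NO and 8.5, 10.2 and 9.7 CPM in KO NO, with a log2 fold change of 0.07 (95% interval −0.96 to 1.10).

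KO RA replicate 3 decided the values of Ubxn2b after RA. Ubxn2b was 9.3, 7.6 and 10.1 CPM in WT RA and 5.1, 5.7 and 23.0 CPM in KO RA. The log2 fold change was 0.31 (SE 0.47, adjusted p = 0.774) with that library, and −0.73 (SE 0.18, adjusted p = 0.0300) without it. Ubxn2a in KO RA was 6.5, 6.5 and 13.4 CPM, with the same library highest. Its log2 fold change against WT RA was 0.10 with the library (95% interval −0.53 to 0.72) and −0.34 without it (−0.69 to 0.01). The high values of both genes in this library rest on its TMM factor. Without TMM factors Ubxn2a had 5.26 CPM there, against 7.92 to 12.1 in the other 5 KO libraries and 6.66 to 16.0 in WT libraries. Ubxn2b had 9.04 CPM there, within the 7.68 to 10.1 of WT libraries and the 6.51 to 11.7 of the other KO libraries.

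UBXN6 (UBXD1) binds p97 through several sites and is known for sorting at endosomes and for clearing damaged lysosomes. Ubxn6 was 22.6, 26.2 and 29.7 CPM in WT NO and 23.6, 25.7 and 25.6 CPM in KO NO, and these groups overlapped (log2 fold change −0.07, 95% interval −0.52 to 0.38). After RA it was 39.5, 30.6 and 29.1 CPM in WT RA and 18.1, 17.7 and 23.8 CPM in KO RA. Every KO RA library lay below every WT RA library. The log2 fold change was −0.74 (SE 0.21, adjusted p = 0.110), and −0.89 (SE 0.17, adjusted p = 0.0114) without KO RA replicate 3, which passed. Mesenchymal and endothelial or haematopoietic marker sums did not overlap between these groups either, as given above. Both separations rest on the TMM factor of KO RA replicate 3 (0.394). In that library Acta2 (210 CPM) made up most of the mesenchymal sum. Its Col3a1 (15.9 CPM), Twist1 (34.9 CPM) and Pdgfra (0.694 CPM) lay below every WT RA library, and its Prrx1, Col1a1 and Col1a2 above. The part of these markers in the Ubxn6 difference was not tested.

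Ubxn6 lies on chromosome 17, whose 794 tested genes had medians of −0.47 in KO NO and −0.46 in KO RA. Its 20 nearest tested genes, looked at after its values were seen, had medians of −0.45 and −0.68. Ubxn6 stood 0.39 above its neighbours on the log2 scale in KO NO. In KO RA replicates 1, 2 and 3 it stood at −0.86, −0.89 and −0.46 against the WT RA mean, and its neighbours at −0.60, −0.57 and −1.36, so that it lay below them in replicates 1 and 2 and above them in replicate 3. Over the 3 libraries the gap was −0.06, and without replicate 3 it was −0.34 (Ubxn6 −0.89, neighbours −0.55). Chaf1a overlaps Ubxn6 on the other strand and reached 61.0 CPM.

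Vcp had 359, 348 and 205 CPM in WT NO and 325, 291 and 288 CPM in KO NO. The groups overlapped, and the log2 fold change was −0.01 (95% interval −0.69 to 0.66). After RA it was 203, 231 and 196 CPM in WT RA and 211, 201 and 103 CPM in KO RA. The difference was −0.29 (95% interval −0.97 to 0.39), and −0.03 (−0.48 to 0.42) without KO RA replicate 3. The intervals allow changes of up to about 1.58-fold higher or 0.621 times as high in KO NO. The retrocopy Vcp-rs, which can share reads with Vcp, had at most 4.58 CPM.

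**Figure D3:**
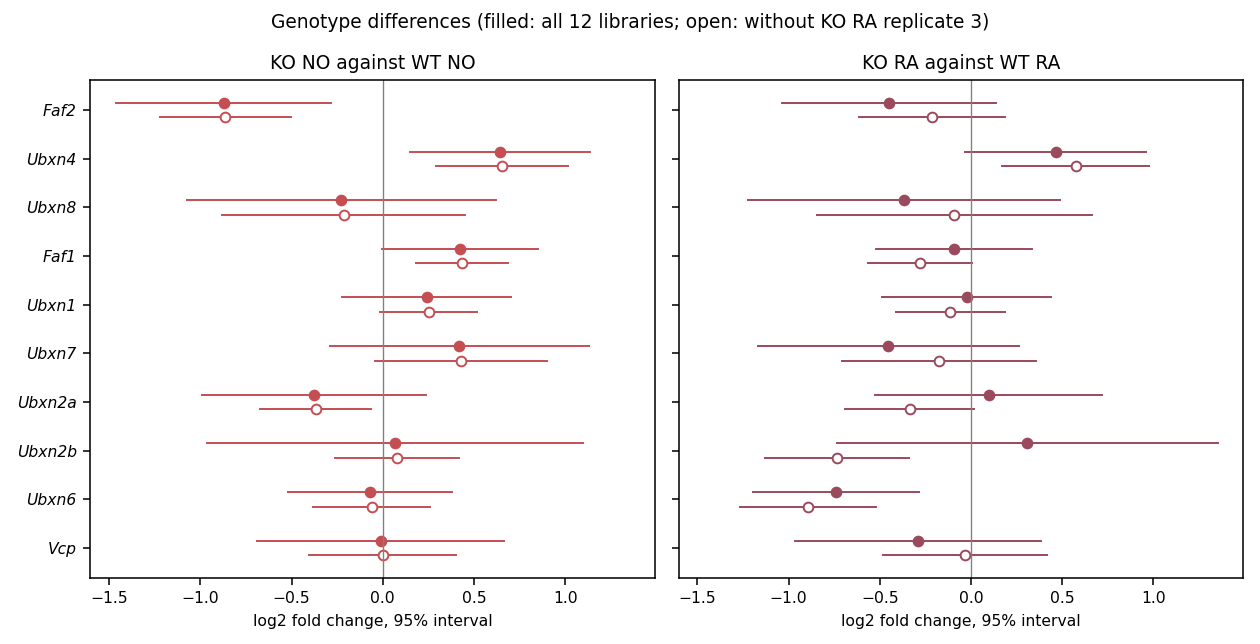
Log2 fold changes (horizontal axis) of the 10 genes in KO NO against WT NO (left) and KO RA against WT RA (right), with 95% intervals; filled points come from all 12 libraries and open points from the fit without KO RA replicate 3. Faf2 and Ubxn4 stand on opposite sides of 0 in both panels, Ubxn6 is lower only in the right panel, and Ubxn2b changes side when the library is left out.

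With all 12 libraries no member was called between genotypes. This was 0 of 10 in KO NO against WT NO, where 1.14% of all tested genes were called, 0 of 10 in KO RA against WT RA, where 1.24% were, and 0 of 10 in the average, where 3.99% were. Before adjustment 2, 1 and 3 members had p under 0.05, beside 12.2%, 17.6% and 18.6% of all genes. The groups of 6 of 10 members did not overlap in KO NO against WT NO: Faf1, Ubxn1, Ubxn4 and Ubxn7 above, and Faf2 and Ubxn2a below, beside 30.7% of all genes. In KO RA against WT RA 2 of 10 did not overlap, Ubxn4 above and Ubxn6 below, beside 20.9% of all genes.

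Without KO RA replicate 3 edgeR called 3 members in KO NO against WT NO: Ubxn4 and Faf1 were higher and Faf2 was lower, beside 8.78% of all genes. In KO RA against WT RA it called 2, Ubxn6 and Ubxn2b, both lower, beside 9.85%. In the average it called 4, of which Ubxn4 was higher and Faf2, Ubxn2a and Ubxn6 were lower, beside 16.0%. The median log2 fold change of the 10 members was 0.03 in KO NO with all libraries, beside −0.02 over all genes, and −0.19 in KO RA, beside 0.09. DESeq2 on all 12 libraries called 2 members in KO NO against WT NO (Ubxn4 higher and Faf2 lower, beside 5.49% of all genes) and the same 2 in the average, beside 9.28%, but 0 in KO RA against WT RA, beside 6.86%.

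The summed level of the 9 UBX genes was 407 to 529 CPM in WT NO and 536 to 543 in KO NO, and with RA 487 to 499 CPM in WT cells and 452 to 507 in KO cells. KO NO lay above WT NO and KO RA overlapped WT RA. Without Faf2 the sum was 371 to 479 CPM in WT NO and 511 to 522 CPM in KO NO, most of it Ubxn1. Faf2 made up 8.79% ± 0.698 (SD, n = 3) of the sum in WT NO and 4.21% ± 0.469 in KO NO. After RA it made up 8.25% ± 1.41 in WT cells and 6.29% ± 2.28 in KO cells, where replicate 3 had 3.70% and the other libraries 7.19 and 7.98%. Nsfl1c, a UBX gene outside the 9, is left out of these sums and of the ratio to Vcp below. Its mean level was 183 CPM in WT NO.

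**Figure D4:**
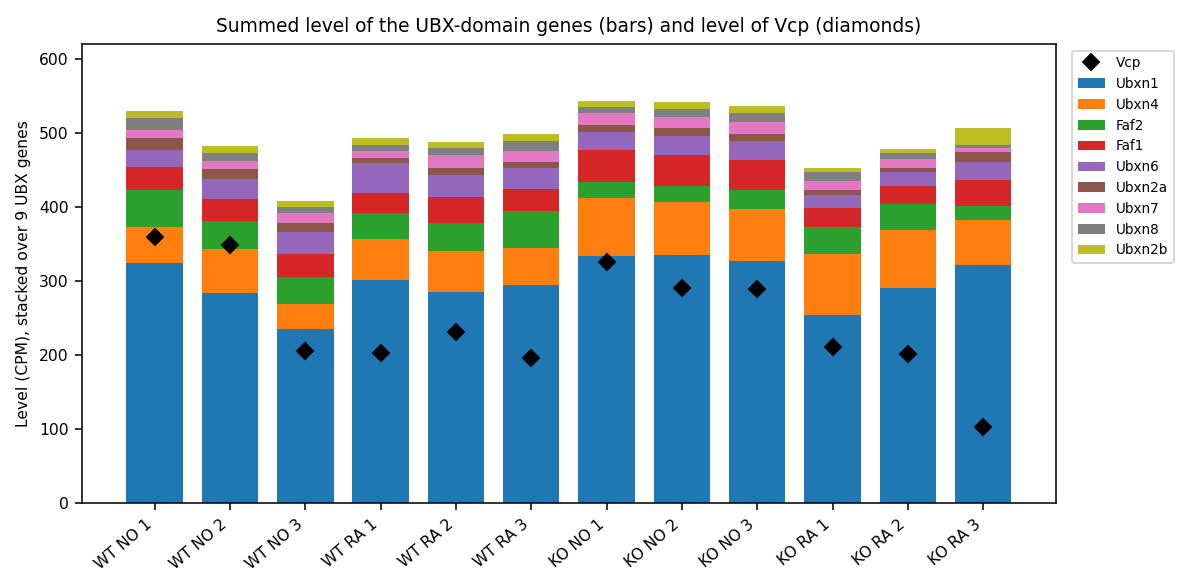
Levels of the 9 UBX genes stacked for each library (vertical axis in CPM, bars from 0) and the level of Vcp (black diamonds). Ubxn1 fills 56.2 to 63.3% of each bar, Faf2 (green) is thinnest in KO NO and KO RA replicate 3, and the diamonds stand at 103 to 231 CPM in the RA libraries and at 205 to 359 CPM in the others.

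Vcp was lower with RA in both genotypes, short of the threshold. In WT cells Vcp had 304 ± 85.7 CPM (SD, n = 3) without RA and 210 ± 18.6 with it, and in KO cells 301 ± 20.8 and 172 ± 59.7. The log2 fold change was −0.53 in WT (SE 0.31, adjusted p = 0.532) and −0.81 in KO (SE 0.31, adjusted p = 0.144). WT NO replicate 3 lay among the RA libraries and the KO groups did not overlap. Neither passed in this fit, nor without KO RA replicate 3 (adjusted p = 0.0895 in WT and 0.0920 in KO). DESeq2 on all 12 libraries called the KO response (adjusted p = 0.0430), its only member called there beside 14.1% of all genes. The ratio of summed UBX level to Vcp was 1.38 to 1.98 in WT NO and 2.11 to 2.55 in WT RA, 1.67 to 1.86 in KO NO and 2.15 to 4.92 in KO RA, where 4.92 is KO RA replicate 3 and the other 2 libraries had 2.15 and 2.37, within the WT RA range. The RA libraries lay above the NO libraries in both genotypes, and the ratio does not depend on the scaling.

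Among the members Ubxn2a had the lowest p in WT cells with RA, at 13.5 ± 1.96 CPM in WT NO and 8.13 ± 0.427 CPM in WT RA (SD, n = 3). The groups did not overlap (log2 fold change −0.73, SE 0.28, adjusted p = 0.310), and without KO RA replicate 3 Ubxn2a passed as lower (adjusted p = 0.0123). It was 1 of 10 members that did not overlap, beside 29.1% of all genes. No member was called in WT RA against WT NO with all libraries, beside 0.406% of all genes. Only Ubxn2a had p under 0.05 before adjustment, beside 12.5% of all genes. DESeq2 on all 12 libraries called 0 of 10, beside 4.53%.

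In KO RA against KO NO 0 of 10 members were called, beside 5.48% of all genes, and 2 (Faf1 and Vcp) had p under 0.05 before adjustment, beside 25.2%. Faf1, Ubxn1, Ubxn7 and Vcp were lower in all 3 KO RA libraries than in any KO NO library, 4 of 10 beside 30.2% of all genes. The log2 fold change of Faf1 was −0.52 (SE 0.20, adjusted p = 0.141). With KO RA replicate 3 left out, 4 members were called beside 16.0% of all genes. Faf2 was higher (0.62, adjusted p = 0.0382), and Faf1 (−0.71, adjusted p = 0.00575), Ubxn2a (−0.70, adjusted p = 0.0151) and Ubxn2b (−0.81, adjusted p = 0.0127) were lower. Neuron markers (8 genes) summed to 72.4 to 90.6 CPM in KO NO and 146 to 208 CPM in KO RA, and the mesenchymal sum was higher as well. Most of the neuron sum was Stmn2 and Tubb3, while Rbfox3 was lower in KO RA (0.0991 to 0.784 CPM) than in KO NO (1.27 to 2.07). The part of the markers in these differences was not tested.

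The difference of the RA response between genotypes was tested as an interaction. No member and no other gene was called with all 12 libraries (0 of 16502 genes, 0.0%), and 1 member had p under 0.05 before adjustment, beside 8.62% of all genes. DESeq2 on the same libraries called 0 of 10 members, beside 1.53% of all genes. For Ubxn6 the response was 0.34 in WT and −0.33 in KO, a difference of −0.67 (SE 0.29, adjusted p = 0.561). For Faf2 the response was −0.03 in WT and 0.39 in KO, a difference of 0.42 (95% interval −0.41 to 1.25). Without KO RA replicate 3 no member passed either, with adjusted p of 0.0690 for Faf1, 0.0873 for Ubxn6 and 0.182 for Faf2, beside 1.34% of all genes.

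**Figure D5:**
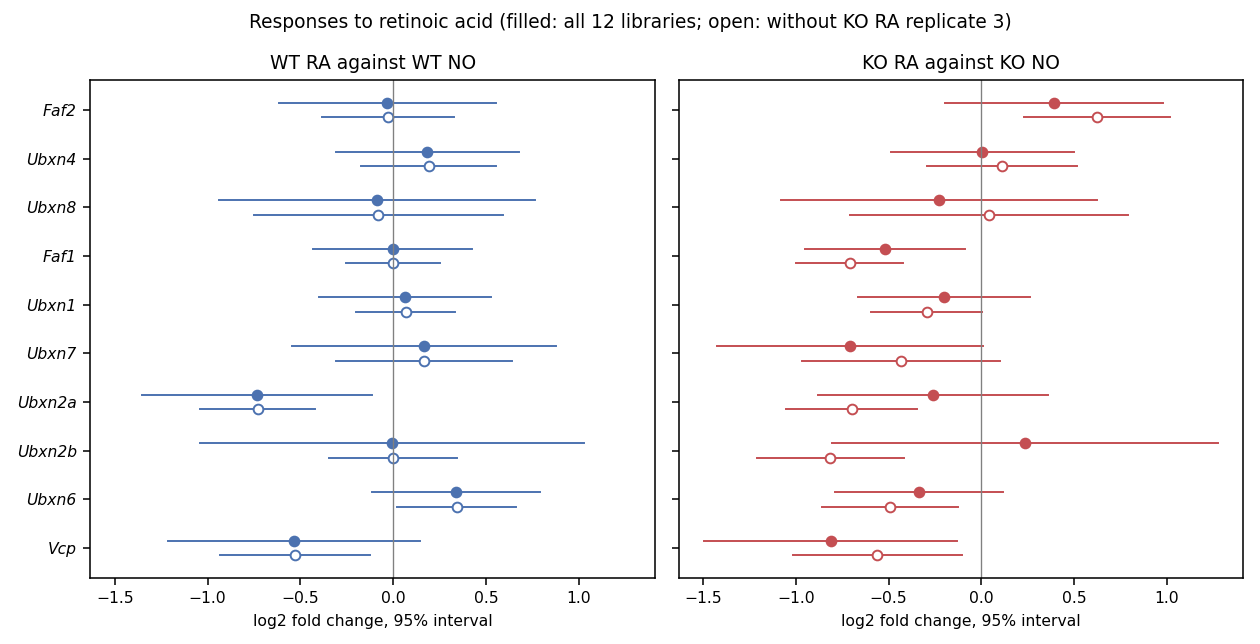
Log2 fold changes with RA (horizontal axis) of the 10 genes in WT cells (left) and KO cells (right), with 95% intervals; filled points come from all 12 libraries and open points from the fit without KO RA replicate 3. Vcp is below 0 in both panels, Ubxn2a is at −0.73 in WT, and Faf2 is near 0 in WT and above 0 in KO.

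Within a group the order of levels was stable at the top. Ubxn1 and Vcp led in all 4 groups, and Ubxn4 came next. In WT NO the ranges of Vcp and Ubxn1 overlapped, as did those of Ubxn4 and Faf2. Faf2 stood below Ubxn4 in WT NO, and in KO NO below Faf1 and Ubxn6 as well, its range overlapping that of Ubxn6 but not that of Faf1. Ubxn7, Ubxn2a, Ubxn2b and Ubxn8 took the last 4 places in every group and overlapped with a neighbour in all but KO NO, where Ubxn7 stood clear above Ubxn2a.

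The genes whose log2 CPM followed Faf2 most closely over the 12 libraries were Fbxl16 on chromosome 17 (Pearson r = 0.942, Spearman rho = 0.909), Kdm1b on chromosome 13 (0.940 and 0.902), Gamt (0.928 and 0.776), Pxdn (0.925 and 0.867) and Tgfb3 (0.923 and 0.811). This is a description over libraries that share groups, depth and scaling. Without KO RA replicate 3 and KO NO replicate 1, the libraries farthest from the median of Faf2, r was 0.867 to 0.906. Among the members Ubxn8 was most like Faf2 (r = 0.688, and 0.407 without those libraries), and Faf1 least like it (r = −0.674 and −0.576).

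Other cofactors of p97 and partners at the ER give the setting. Of 4 further UBX genes, Nsfl1c (p47) was high, at 183 ± 4.15 CPM in WT NO and 174 ± 13.4 in KO NO (SD, n = 3; log2 fold change −0.07, 95% interval −0.58 to 0.43). Aspscr1 stood at 0.00 and Ubxn11 at −1.06 (SE 0.67). In edgeR with all libraries none was called in any comparison, beside 0.0% to 5.48% of all genes. Ubxn10 had at most 1.23 counts and was not tested. The median of the 3 tested was −0.07.

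Of 16 cofactors without a UBX domain, edgeR called none in KO NO against WT NO with all 12 libraries, beside 1.14% of all genes. Their median was 0.20, beside −0.02 over all genes. Tex264 encodes an ER membrane protein that binds p97 and acts as a receptor for autophagy of the ER. It was called higher in KO RA against WT RA (log2 fold change 0.99, SE 0.19, adjusted p = 0.0375). This was 1 of 16, beside 1.24% of all genes, and Tex264 was the only one in that fit. That call was lost without the filter on low counts, with a replicate term and on the 6 RA libraries alone, and held without KO RA replicate 3 (0.98, adjusted p = 0.00669). It was 27.4, 28.4 and 23.2 CPM in WT RA and 45.0, 59.1 and 52.6 CPM in KO RA. In KO NO Tex264 was 0.76 (adjusted p = 0.0952), and it passed without KO RA replicate 3 (0.77, adjusted p = 0.0121). Yod1, a deubiquitinase that works with p97, was at 0.96 in KO NO (adjusted p = 0.253, and 0.0760 without that library). Vcpip1, another, was at −0.53 (adjusted p = 0.538) and passed as lower without that library (−0.53, adjusted p = 0.0420). Without that library 1 of the 16 was called higher and 1 lower in KO NO, beside 8.78% of all genes.

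Of 12 partners of p97 and FAF2 at the ER membrane edgeR called none in any comparison with all 12 libraries, beside 0.0% to 5.48% of all genes. In KO NO 10 had a positive log2 fold change (median 0.24, beside −0.02 over all genes). Over this and the other lists together, DESeq2 on all 12 libraries called 3 genes higher in KO NO, beside 5.49% of all genes. It called 4 higher in the average, beside 9.28%, and 2 higher in KO RA against KO NO, beside 14.1%. Derl3, a derlin of the ERAD channel, was 3.1, 3.3 and 2.2 CPM in WT NO and 14.7, 8.9 and 7.8 CPM in KO NO (1.88, SE 0.45, adjusted p = 0.0847). Erlin1, which forms a scaffold for ERAD in the ER membrane, was 11.3, 12.7 and 7.0 CPM in WT NO and 20.8, 21.0 and 21.0 CPM in KO NO (1.02, SE 0.24, adjusted p = 0.0787). Both were called without KO RA replicate 3 (adjusted p = 0.00746 and 0.0117), 2 of 12 beside 8.78% of all genes. The study picked them from these libraries too. After RA the KO to WT differences were 0.30 for Derl3 and 0.33 for Erlin1, with adjusted p of 0.766 and 0.491, and without KO RA replicate 3 they were 0.64 and 0.20 (adjusted p = 0.268 and 0.601). In the fit without that library Sel1l alone of the 12 was called in KO RA against WT RA, as higher, beside 9.85% of all genes. In the average of that fit 4 of 12 were called higher (Derl3, Erlin1, Sel1l and Syvn1), beside 16.0%.

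Promoter windows of RefSeq (mouse build GRCm38.p6, 250 bases before to 50 after the start) were found for 8 of the 10 members, and not for Ubxn2b and Ubxn8. They were searched on both strands for the consensus of 3 factors of the unfolded protein response, the program that adds ER chaperones and ERAD parts under stress. CCAAT followed after 9 bases by CCACG, the ATF6 element, was in none of the 8 and in 0.119% of all 32851 windows. TGACGTGG, read by XBP1 and ATF6, was only in Vcp among them, and in 0.676% of windows. TGATGNAA, read by ATF4 with a partner, was only in Faf2, on the strand opposite to the gene, and in 3.97% of windows. Both matches are shown with 16 bases on each side and the match in capitals, 5′ to 3′ along the gene.
Vcp (chr4:43000598-43000637, minus strand, first base 114 before the start): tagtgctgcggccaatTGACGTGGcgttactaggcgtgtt
Faf2 (chr13:54621585-54621624, plus strand, first base 183 before the start): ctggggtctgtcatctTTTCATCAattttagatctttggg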

How the data were processed

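RNA was sequenced from 12 libraries of NE-4C cells. The authors ran nf-core/rnaseq (STAR and Salmon, GRCm39) and deposited estimated counts per gene scaled from TPM, with no scaling between libraries. In the 3851 genes above 0 in 1 library, values fell with exonic length (Spearman correlation −0.685), so a count is not a number of fragments. Rounded counts entered edgeR 4.0.16 (R 4.3.3): filterByExpr (16502 genes), TMM, 1 coefficient per group, robust quasi-likelihood test, Benjamini-Hochberg adjustment over all genes and a threshold of 0.05. Alternatives used DESeq2 1.42.0 and limma 3.58.1 (voom), other filters and scaling, 6 libraries only, a replicate term and each library left out. Scripts were tested on simulated data with a dispersion (spread between replicates) of 0.05 and no outlying library. The common dispersion of these data was 0.215, so that test does not show how many changes were missed here. Depth limits low genes most, and p-values measure the spread between passages. All 10 members were named. In each other list, genes that edgeR called with all 12 libraries were named. Up to 2 per direction were added by smallest p in KO NO against WT NO. Sel1l and Syvn1 were named for calls without KO RA replicate 3. The members and lists were chosen with earlier results of these data known. Positions came from GENCODE. Figures were drawn with matplotlib 3.10.9.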

Additional observations from a re-analysis of the deposited data

How the results depend on the processing

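The adjusted p-values of the members depended most on KO RA replicate 3 and on the test, and their log2 fold changes mostly on single libraries. Of the member log2 fold changes under alternatives that kept all libraries of a comparison, 381 kept their direction and side of the threshold, 33 newly passed and 29 changed sign, of which 3 (Ubxn2b under limma-voom) did both. With 1 library left out at a time, 656 kept both, 14 newly passed and 52 changed sign, of which 2 (Ubxn2b) did both. Counts below are genes called higher or lower, against 0 of 10 members in every comparison and, in the other lists, 1 higher (Tex264) in KO RA against WT RA and in the average.

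DESeq2 on all 12 libraries called members in KO NO (1 higher, 1 lower), the average (1 and 1) and KO RA against KO NO (1 lower), and in the lists 3, 4 and 2 higher. It gave Ubxn1 0.057 in KO RA against WT RA and Ubxn7 0.0040 in the average. limma-voom with quality weights called members in KO NO (2 higher, 2 lower), KO RA (1 and 2), the average (1 and 4), the WT response (1 and 2), the KO response (1 and 5) and the interaction (2 lower). Of all 16502 genes it called 1794 higher and 1781 lower in KO NO, and 1613 and 1380 in KO RA. In the average it called 2359 and 2208, and in the WT response 1787 and 1789. In the KO response it called 2502 and 2032, and in the interaction 599 and 402. In the lists it called 6 and 3, 4 and 1, 10 and 1, 3 and 4, 3 and 2, and 1 lower. Its reversed values were Ubxn6 0.038 in KO NO, Ubxn2a −0.31 and Ubxn2b −0.74 in KO RA, Ubxn2b −0.35 and Ubxn7 0.23 in the average, Ubxn1 −0.027 in the WT response, Ubxn2b −0.78 in the KO response, and Ubxn2b −0.77, Ubxn4 0.074, Ubxn8 0.19 and Vcp 0.18 in the interaction. On 6 libraries DESeq2 called 2 members higher and 1 lower in KO NO and 1 lower in the WT response, with 3 list genes higher in KO NO and 1 higher and 1 lower in the WT response. These stand beside 970 genes higher and 880 lower of 17264 in KO NO, and 909 and 789 of 15746 in the WT response. Vcp was 0.0028 in KO NO and Ubxn1 0.027 in KO RA. edgeR on 6 libraries called 1 member lower in KO NO, 3 list genes higher there, 0 in KO RA and 1 in the WT response, with Vcp at 0.0068 and Ubxn1 at 0.0075. Over all genes it called 406 higher and 312 lower of 15254 in KO NO, and 316 and 229 of 14705 in the WT response.

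DESeq2 size factors gave 1 list gene higher in the KO response, Faf1 0.0066 and Ubxn1 0.065 in KO RA, Ubxn7 0.0019 in the average and Faf1 0.0012 in the WT response. Without the filter 0 list genes were called in KO RA, with Vcp 0.0042 in KO NO, Faf1 0.0045 in the WT response and Ubxn4 −0.038 in the KO response. At least 10 counts in every library gave Ubxn1 0.010 in KO RA and Faf1 0.012 and Ubxn2b 0.0090 in the WT response. The replicate block gave Vcp 0.037 in KO NO, Ubxn4 −0.0081 in the KO response and 0 list genes in KO RA, and changed no other call. Correlations of same-numbered libraries ran from −0.167 to 0.038, beside −0.0748 to 0.144 for libraries of different numbers. They compare deviations from means of only 3 libraries, so they cannot settle whether replicate numbers pair the samples.

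Leaving out 1 library at a time, members called ran in KO NO from 0 to 2 higher and 0 to 1 lower, in KO RA from 0 to 2 lower, in the average from 0 to 1 higher and 0 to 3 lower, in the WT response from 0 to 1 lower and in the KO response from 0 to 1 higher and 0 to 3 lower. Every member call came from leaving out KO RA replicate 3. List genes called ran in KO NO from 0 to 3 higher and 0 to 1 lower, in KO RA from 0 to 2 higher, in the average from 1 to 7 higher, in the WT response from 0 to 1 each way and in the KO response from 0 to 2 each way. The median of chromosome 13 in KO RA was −0.43 without KO RA replicate 3. Log2 fold changes that crossed 0 ran in KO NO for Ubxn6 from −0.17 to 0.038, for Ubxn8 from −0.43 to 0.11 and for Vcp from −0.22 to 0.13. In KO RA they ran for Faf1 from −0.28 to 0.054, for Ubxn1 from −0.11 to 0.11, for Ubxn2a from −0.34 to 0.34 and for Ubxn2b from −0.73 to 0.74. In the average they ran for Ubxn2b from −0.33 to 0.40 and for Ubxn7 from −0.14 to 0.13. In the WT response they ran for Faf1 from −0.11 to 0.070, for Faf2 from −0.19 to 0.12, for Ubxn1 from −0.049 to 0.18, for Ubxn2b from −0.10 to 0.10, for Ubxn4 from −0.0012 to 0.38, for Ubxn7 from −0.074 to 0.40 and for Ubxn8 from −0.30 to 0.25. In the KO response they ran for Ubxn2b from −0.81 to 0.67, for Ubxn4 from −0.035 to 0.11 and for Ubxn8 from −0.64 to 0.042. In the interaction they ran for Ubxn2b from −0.81 to 0.67, for Ubxn4 from −0.38 to 0.017 and for Ubxn8 from −0.55 to 0.12. The causes were not tested.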
